A study of Rattus norvegicus with 16 samples.

Results

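Il1a, Il1b and Il10, the genes of interleukin-1α, interleukin-1β and interleukin-10, were followed in rat abdominal wall under implants. They are 3 of the 32552 genes in the deposited count files and were picked by their Ensembl identifiers, ENSRNOG00000004575, ENSRNOG00000004649 and ENSRNOG00000004647. The abdominal wall of female Sprague Dawley rats aged 12 weeks carried an adhesive implant, which bonds to the wet tissue surface, or a non-adhesive implant. The latter was the same device and layer after full swelling in phosphate-buffered saline, which removes the bonding, and it was held by sutures, so bonding and sutures cannot be told apart between the implants. Tissue was labelled as collected on day 3 or day 14 post-implantation, with 4 libraries in each of the 4 groups and 16 in all. The series text also names day 17 and the extraction text day 10. The labels do not state that each library came from a separate rat, so every p-value measures the spread between these libraries, which may be in part technical.

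IL-1α and IL-1β are ligands of the same receptor, which signals through MyD88 and NF-κB and switches on chemokines, endothelial adhesion molecules and prostaglandin synthesis. IL-1β is made as an inactive precursor by monocytes, macrophages and neutrophils and is cut by caspase-1 in an inflammasome, while IL-1α is kept in many cells and released when they are damaged. IL-10 is a cytokine of macrophages and lymphocytes that acts through STAT3 and restrains the making of inflammatory cytokines, IL-1 among them. All 3 transcripts are induced and short-lived, and their proteins are controlled after transcription as well, which read counts do not measure.

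The count files place Il1a at chr3:121825412-121836086 and Il1b at chr3:121876263-121882726, both on the minus strand, with the end of Il1a 40177 bases from the start of Il1b. Il10 lies at chr13:47739526-47743392 on the plus strand. The annotated exons cover 1272 bases of Il1a, 1396 of Il1b and 682 of Il10, and no other gene in the files overlaps any of them. These are the coordinates as deposited, since the methods and the labels name different genome builds. RefSeq gives promoter sequence in build GRCr8 for Il1a and Il1b, and the 100 bases before the start that its promoter table uses are shown 5′ to 3′ on the strand of the gene, because these neighbouring ligand genes are induced by many of the same stimuli and can be compared directly. Capitals mark matches to TATAAA, the letters of a TATA box, or to TGANTCA, the letters bound by AP-1.
Il1a, chr3:136990018-136990117, minus strand: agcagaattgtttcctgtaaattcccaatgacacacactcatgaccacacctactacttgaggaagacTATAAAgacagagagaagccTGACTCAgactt
Il1b, chr3:137036582-137036681, minus strand: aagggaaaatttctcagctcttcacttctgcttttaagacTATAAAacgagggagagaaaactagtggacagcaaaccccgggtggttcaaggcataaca
For Il1b this start is the outer end of the RefSeq gene, whereas for Il1a it lies inside the RefSeq gene, whose outer end is at 136990236, so distances from the start are not like for like between the genes. Counted back from these starts, TATAAA began 32 bases upstream in Il1a and 60 bases upstream in Il1b. TGANTCA began 12 bases upstream in Il1a and had no match in the Il1b window. On either strand, 5.78% of the windows of the same length in 33469 rat promoters held TATAAA and 2.47% held TGANTCA, and the 2 motifs do not overlap in these windows. A match describes letters and does not show a bound site.

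All 16 libraries held reads of Il1b and Il10, and 15 held reads of Il1a. Total counts per library were 18616084 to 24858976 on day 3 and 13852126 to 16801635 on day 14, so the depths of the days do not overlap. Day and any batch tied to it cannot be told apart. Over the 16 libraries, Il1b gave 2642 reads, Il10 440 and Il1a 109. Levels are given as CPM, counts scaled to the same library total, after scaling by trimmed means (TMM). Non-adhesive day 14 replicate 4 stood apart. Its distance to the rest of its group was 1.08 (root mean square of log2 CPM over genes), against 0.381 to 0.784 for the other 15 libraries. It held the lowest summed level of the 5 named pan-leukocyte markers in the series, 89.6 CPM against 140.3 to 501.8 in the other libraries. Skeletal muscle, which the abdominal wall is largely made of, was present throughout: 4 named muscle fibre genes summed to 4216 to 27340 CPM.

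**Figure D1:**
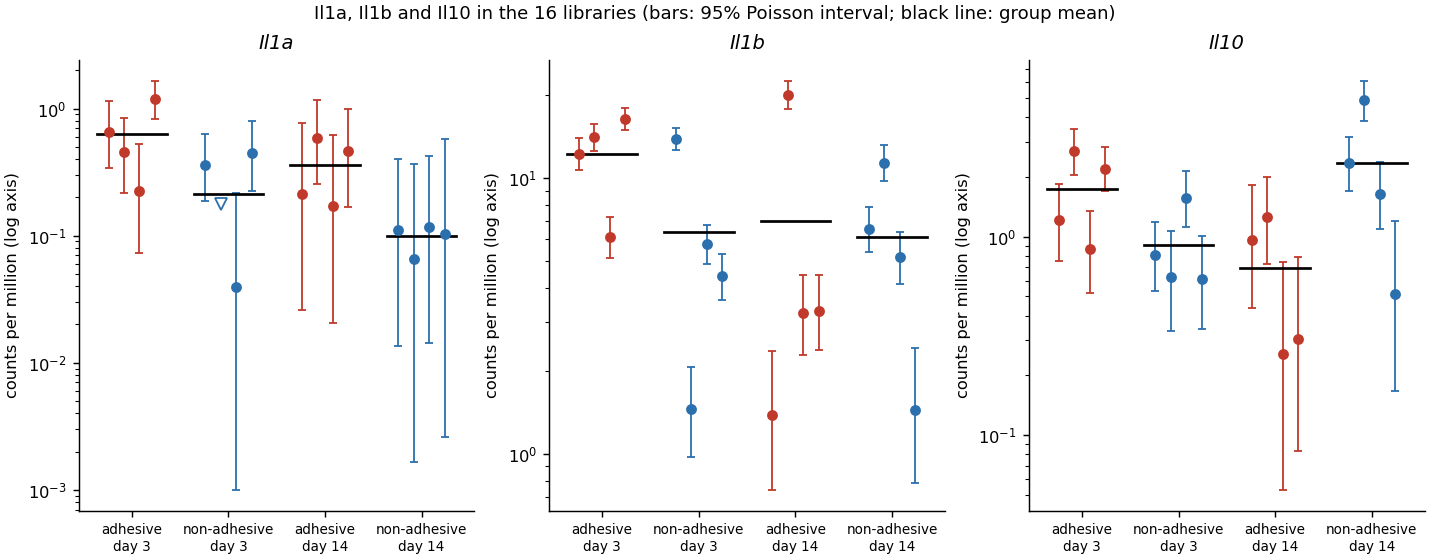
CPM on a log axis for each of the 16 libraries, with 95% Poisson intervals of the count (counting error only) and the group mean as a black line. The triangle marks the library with 0 reads of Il1a at its upper limit, and adhesive day 14 replicate 2 stands at 20.1 CPM of Il1b above the other 3 libraries of its group.

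Il1b was the most abundant of the 3 transcripts. In the adhesive libraries of day 3, Il1b stood at 12.3, 14.1, 6.12 and 16.3 CPM, a mean of 12.2 ± 4.38 (SD, n = 4). In the non-adhesive libraries of day 3 it stood at 13.9, 1.45, 5.76 and 4.42 CPM, a mean of 6.38 ± 5.32 (SD, n = 4). The groups overlapped, since non-adhesive replicate 1 lay among the adhesive libraries and adhesive replicate 3 close to non-adhesive replicate 3. On day 14 the adhesive libraries held 1.39, 20.1, 3.24 and 3.30 CPM (mean 7.0 ± 8.77, SD, n = 4). The non-adhesive libraries of day 14 held 6.53, 11.4, 5.16 and 1.44 CPM (mean 6.12 ± 4.10, SD, n = 4). Adhesive replicate 2 was the highest Il1b library of the whole series and the other 3 adhesive libraries were below 3 of the 4 non-adhesive ones. By group mean the order was adhesive day 3, adhesive day 14, non-adhesive day 3 and non-adhesive day 14, and the ranges of all neighbours in that order overlapped.

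Il10 followed another order, with the highest mean in the non-adhesive group of day 14. On day 3 its levels were 1.21, 2.69, 0.861 and 2.20 CPM under adhesive implants (mean 1.74 ± 0.849, SD, n = 4). Under non-adhesive implants they were 0.812, 0.628, 1.57 and 0.613 CPM (mean 0.905 ± 0.451, SD, n = 4). Adhesive replicates 2 and 4 lay above every non-adhesive library and the remaining libraries were mixed. On day 14 the adhesive libraries held 0.960, 1.25, 0.256 and 0.307 CPM of Il10 (mean 0.693 ± 0.491, SD, n = 4), from 9, 17, 3 and 4 reads. The non-adhesive libraries held 2.34, 4.86, 1.64 and 0.514 CPM (mean 2.34 ± 1.84, SD, n = 4), from 42, 74, 28 and 5 reads. Non-adhesive replicates 1 to 3 were above all adhesive libraries of that day, and replicate 4, the library that stands apart, fell among them. The full order was non-adhesive day 14, adhesive day 3, non-adhesive day 3 and adhesive day 14, again with overlapping ranges between neighbours.

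Il1a was close to the detection floor. Under adhesive implants on day 3 it gave 12, 10, 5 and 34 reads, or 0.658, 0.455, 0.227 and 1.19 CPM (mean 0.632 ± 0.410, SD, n = 4). Under non-adhesive implants on day 3 it gave 12, 0, 1 and 11 reads, or 0.361, 0, 0.0392 and 0.450 CPM (mean 0.212 ± 0.226, SD, n = 4). The count of 0 in non-adhesive day 3 replicate 2 allows a level of up to 0.178 CPM (3.69 reads), the upper end of its 95% Poisson interval. Adhesive replicate 4 was the highest library of that day, and the groups overlapped. On day 14 the adhesive libraries gave 2, 8, 2 and 6 reads, or 0.213, 0.589, 0.171 and 0.460 CPM (mean 0.358 ± 0.20, SD, n = 4). The non-adhesive libraries of day 14 gave 2, 1, 2 and 1 reads, or 0.112, 0.0657, 0.117 and 0.103 CPM (mean 0.0994 ± 0.0232, SD, n = 4). The CPM of these groups did not overlap, which is also true of 8.48% of the 13557 genes tested on that day, but 2 libraries of each group held the same 2 reads and were separated by library scaling alone. Poisson intervals show how little such counts fix: 2 reads in adhesive replicate 3 allow 0.0207 to 0.616 CPM and 2 reads in non-adhesive replicate 3 allow 0.0142 to 0.424 CPM. By group mean Il1a was ordered adhesive day 3, adhesive day 14, non-adhesive day 3 and non-adhesive day 14, with overlap at each step.

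Levels of different genes were compared per kilobase of exon. On that scale (CPM per kb) Il1b exceeded Il1a in 16 of 16 libraries and Il10 in 15 of 16, and Il10 exceeded Il1a in 16 of 16. Il1b was 2.56 to 4.97 times Il10 per kb in the adhesive libraries of day 3 and 1.14 to 1.54 times in the non-adhesive libraries of day 14. The other groups spanned both ranges, at 1.13 to 8.36 times in the non-adhesive libraries of day 3 and 0.706 to 7.85 times in the adhesive libraries of day 14. The 1 library with Il10 above Il1b per kb was adhesive day 14 replicate 1, where Il1b was 0.706 times Il10 per kb, from 13 and 9 reads. The precision of such ratios is set by the rarer gene.

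The comparison of implants asks whether bonding to the tissue goes with a different transcript level of these cytokines. Day 3 was fitted alone. The log2 fold change of adhesive against non-adhesive implants was 1.51 (SE 0.85) for Il1a, 0.91 (SE 0.58) for Il1b and 0.92 (SE 0.47) for Il10. All 3 estimates were above 0, none passed the test, and the adjusted p-values in edgeR's quasi-likelihood test were 0.75, 0.783 and 0.72. A gene counts as called here at an adjusted p of at most 0.05, Benjamini-Hochberg over all genes tested, when its log2 fold change is also 1 or more in size. No gene of 14223 was called on day 3 (0%), with 1022 at an unadjusted p under 0.05 in edgeR and 69 called by DESeq2 (0.485%), so 0 of 3 members is no departure from the background. DESeq2 and limma-voom called none of the 3 either. Nor did the implants separate any of the 3 members by the ranges of their libraries, which 4.07% of the genes tested did. The 95% confidence intervals ran from -0.43 to 3.44 for Il1a, from -0.41 to 2.23 for Il1b and from -0.13 to 1.97 for Il10, so differences of more than 2-fold in favour of adhesive implants are inside each interval.

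On day 14 no member was called. Il10 had a log2 fold change of -1.78 (SE 0.72, 95% confidence interval -3.43 to -0.14) for adhesive against non-adhesive implants, with an unadjusted p of 0.0358 and an adjusted p of 0.273 in edgeR, and was not called. Il1b had 0.19 (SE 0.85, adjusted p = 0.944 in edgeR), with an interval from -1.74 to 2.11. Il1a did not pass the filter on low counts in this comparison, and in a fit without that filter it had 1.77 (SE 0.67, unadjusted p = 0.0195, adjusted p = 0.281 in edgeR). An exact permutation test of the log2 CPM of Il1a gave 0.029, the smallest two-sided p that 4 against 4 libraries allow, and rests on the separation by scaling described above. Of the 13557 genes tested, edgeR called 0.266% and DESeq2 3.5%, and neither Il1b nor Il10 was among them.

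The library that stands apart decided the Il10 call. Without non-adhesive day 14 replicate 4, Il10 had a log2 fold change of -2.11 (SE 0.59) between the implants on day 14 with an adjusted p of 0.0401 in edgeR, and was called lower under adhesive implants. The share of all genes called rose at the same time to 8.32% of 13832, so Il10 moved past the threshold with 1151 genes. Il1b was near 0 with that library (0.19) and without it (-0.13). Adhesive day 14 replicate 2 decided the sign of Il1b in turn: without it the log2 fold change was -1.23 (SE 0.65, adjusted p = 0.348 in edgeR). Non-adhesive day 14 replicate 2 was the highest in Il10, and without it the Il10 value was -1.17 (SE 0.69), not called.

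**Figure D2:**
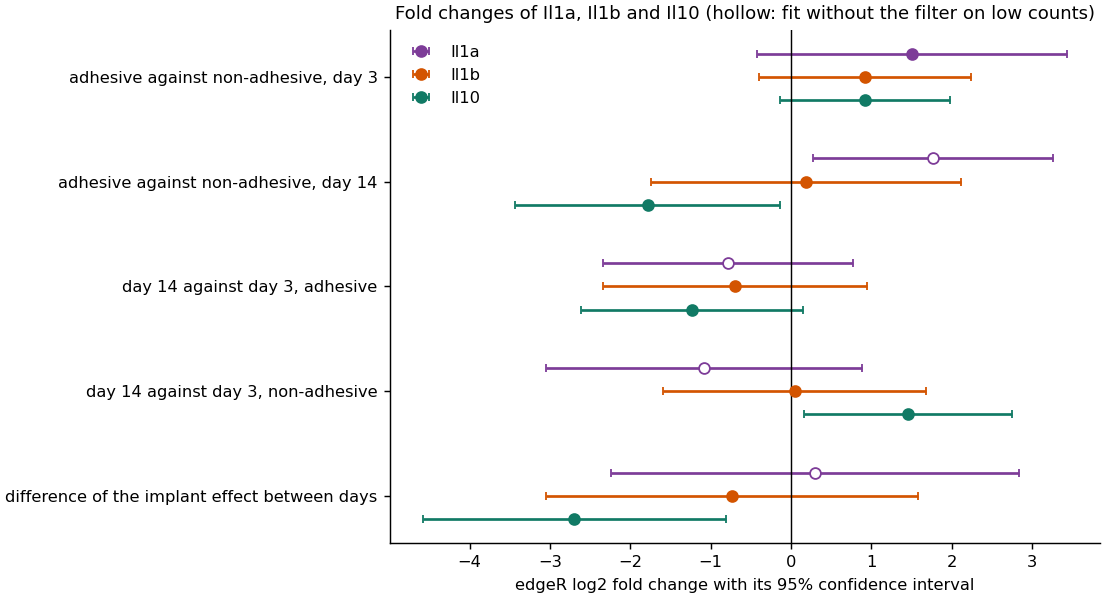
edgeR log2 fold changes of Il1a, Il1b and Il10 in the 5 comparisons with 95% confidence intervals; hollow points come from the fit without a filter on low counts. The intervals of Il1b cross 0 in all 5 comparisons, while those of Il10 lie below 0 between implants on day 14 and above 0 for day 14 against day 3 under non-adhesive implants, although no point passes the adjusted threshold.

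The comparison of days asks how the transcripts stood on day 14 relative to day 3 under each implant. It shares libraries with the comparison of implants and is no separate evidence. Under adhesive implants, Il10 had a log2 fold change of -1.24 (SE 0.65, adjusted p = 0.197 in edgeR) for day 14 against day 3 and Il1b had -0.70 (SE 0.77, adjusted p = 0.558). Under non-adhesive implants Il10 had 1.46 (SE 0.61, 95% confidence interval 0.17 to 2.75, unadjusted p = 0.029, adjusted p = 0.106 in edgeR), and Il1b had 0.04 (SE 0.77, adjusted p = 0.976). Without the filter Il1a had -0.79 (SE 0.74) under adhesive and -1.09 (SE 0.93) under non-adhesive implants. Neither passed, with adjusted p-values of 0.548 and 0.482 in edgeR. Among all 14601 genes tested, 8.12% were called under adhesive and 9.07% under non-adhesive implants, and no member was. The libraries of the 2 days overlapped for each member under both implants, while 26.6% of the genes under adhesive and 18.2% under non-adhesive implants did not overlap. Leaving out non-adhesive day 14 replicate 4 gave Il10 a log2 fold change of 1.71 (SE 0.55) under non-adhesive implants with an adjusted p of 0.0406 in edgeR, a call, beside a background of 9.72%. Without non-adhesive day 14 replicate 2 the value was 0.84 (SE 0.60), not called. Leaving out adhesive day 14 replicate 2 took the value of Il1b under adhesive implants to -2.11 (SE 0.72, adjusted p = 0.0639 in edgeR).

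The test of whether the implant effect differed between the days gave its lowest unadjusted p of the 3 members for Il10. The difference was -2.70 on the log2 scale (SE 0.89, 95% confidence interval -4.59 to -0.81, unadjusted p = 0.00804), which is the effect of day 14 minus that of day 3. After adjustment over 14601 genes the p-value was 0.786 in edgeR and 0.276 in DESeq2, so the difference did not pass, and edgeR called 0.00685% of the genes in this comparison. Without non-adhesive day 14 replicate 4 the difference was -3.00 (SE 0.79, adjusted p = 0.19 in edgeR). For Il1b it was -0.74 (SE 1.09, adjusted p = 1 in edgeR) and for Il1a, without the filter, 0.30 (SE 1.21, adjusted p = 1 in edgeR).

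In bulk tissue, fewer cells of a type and less RNA per cell cannot be told apart, so the members were also set against each other and against Ptprc, the gene of the leukocyte protein CD45, within each library. Ptprc stood at 128 ± 51.1 CPM in the adhesive and 74.0 ± 35.0 CPM in the non-adhesive group of day 3 (SD, n = 4). On day 14 it stood at 68.5 ± 22.6 and 77.5 ± 50 CPM (SD, n = 4). On day 3 the log2 ratio of Il10 to Ptprc was -6.23 ± 0.21 under adhesive and -6.29 ± 0.92 under non-adhesive implants (SD, n = 4), a difference of 0.06. The corresponding difference for Il1b was 0.42, with an exact permutation p of 0.34. For Il1a the differences were 1.31 on day 3 and 1.35 on day 14 (exact permutation p = 0.17 and 0.14), with 0 to 34 reads of Il1a a library. On day 14 the log2 ratio of Il10 to Ptprc was -6.75 ± 1.33 under adhesive and -5.05 ± 1.04 under non-adhesive implants (SD, n = 4), a difference of -1.70 (exact permutation p = 0.11, two-sided). Relative to Ptprc, therefore, the mean of Il10 was nearly equal between implants on day 3 and lower under adhesive implants on day 14, within the spread of the libraries.

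The balance of Il10 to Il1b did not depend on library scaling. In the non-adhesive libraries of day 14 the count of Il10 was 35.9, 42.8, 31.8 and 35.7% of that of Il1b. This narrow band included the library that stands apart, whose share rests on 5 reads of Il10 and 14 of Il1b. In the adhesive libraries of day 14 the share was 69.2, 6.23, 7.89 and 9.30%, from 9, 17, 3 and 4 reads of Il10. Thus 3 adhesive libraries lay below, and replicate 1 above, every non-adhesive library. On day 3 the shares were 9.82, 19.1, 14.1 and 13.5% under adhesive and 5.84, 43.3, 27.2 and 13.9% under non-adhesive implants. The mean log2 ratio on day 14 was -2.80 ± 1.56 under adhesive and -1.43 ± 0.17 under non-adhesive implants (SD, n = 4), a difference of -1.37 with an exact permutation p of 0.14. Of 20 such comparisons of ratios (5 ratios in 4 comparisons), none passed, and the lowest Benjamini-Hochberg adjusted p of the exact permutation tests was 0.49. The log2 ratio of Il1b to Il1a ranged from 2.43 to 6.85 over the libraries, with 0 to 34 reads of Il1a behind it.

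**Figure D3:**
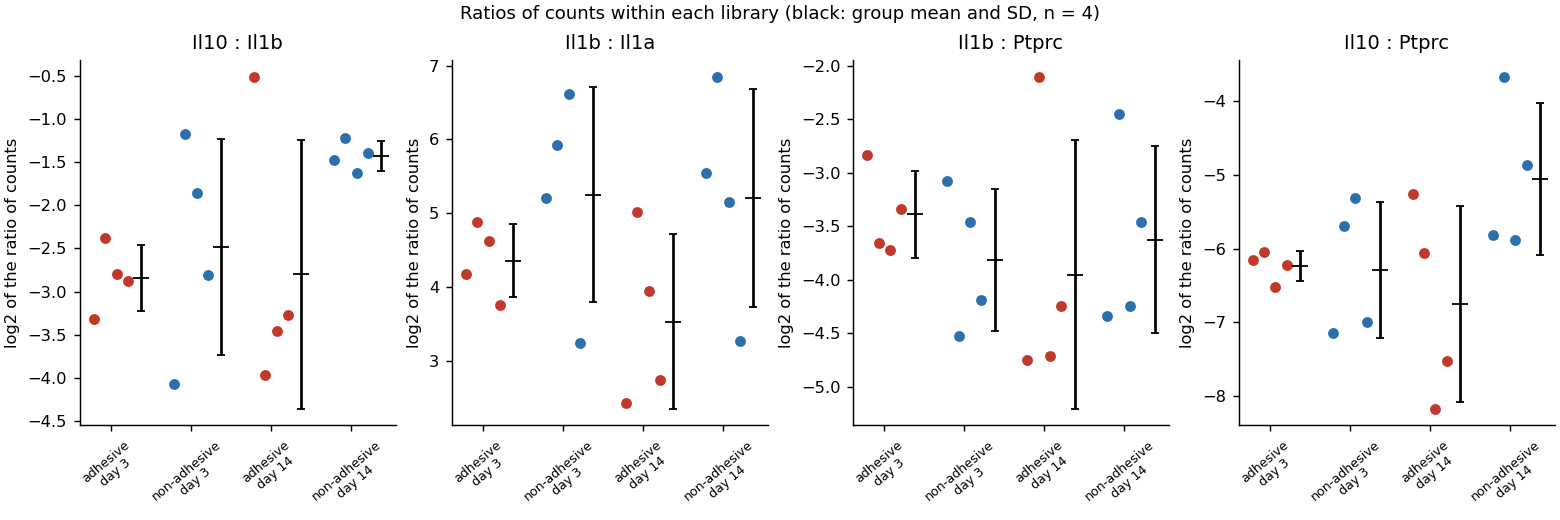
Log2 ratios of raw counts (pseudocount 0.5) within each library by group, with the group mean and SD at the right of each group (n = 4). The ratio of Il10 to Il1b in the non-adhesive libraries of day 14 lies between -1.63 and -1.22, while that of the adhesive libraries of day 14 runs from -3.97 to -0.51.

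Across the 8 libraries of a day, the members were compared pairwise in log2 CPM, 6 relations in all. On day 3, Il1a and Il1b gave Pearson's r = 0.81 (permutation p = 0.022, adjusted p = 0.13) and Spearman's rho = 0.76 (permutation p = 0.037, adjusted p = 0.14). Within the groups r was 0.87 in the adhesive and 0.66 in the non-adhesive libraries of that day. Without the 2 libraries farthest from the median of Il1a, r was 0.55, so the relation rests in part on non-adhesive replicates 2 and 3. Il1b and Il10 gave r = 0.66 on day 3 (permutation p = 0.055, adjusted p = 0.16; rho = 0.74, permutation p = 0.046, adjusted p = 0.14) and 0.37 without the 2 farthest libraries. On day 14 they gave r = 0.58 (permutation p = 0.13, adjusted p = 0.26; rho = 0.64, permutation p = 0.096, adjusted p = 0.19), with 0.99 within the 4 non-adhesive and 0.40 within the 4 adhesive libraries. Leaving out the 2 libraries farthest from the median of Il1b, adhesive replicates 1 and 2, gave r = 0.83. Il1a and Il1b gave r = 0.23 on day 14, which became -0.68 without the 2 libraries farthest from the median of Il1a, and 0.75 and -0.49 within the adhesive and non-adhesive libraries. This relation and the remaining 2 had r from -0.44 to 0.42 and permutation p-values of 0.24 or more. None of the 6 passed after adjustment.

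Gene symbols were at hand for 2007 of the 32552 genes, so only part of each pathway could be named. The ligand list held no named gene besides Il1a and Il1b (2 of 11), and the IL-10 family and receptor list none besides Il10 (1 of 12). Of the inflammasome and processing list, 4 of 23 genes had a symbol: Nlrp3 and Aim2, sensors that assemble inflammasomes, Nek7, which binds NLRP3, and P2rx7, the ATP-gated channel upstream of it. None was called in any comparison with all libraries. Nlrp3 stood at 13.6 ± 3.99, 12.9 ± 4.18, 8.58 ± 5.10 and 13.5 ± 6.64 CPM in the adhesive and non-adhesive groups of day 3 and those of day 14 (SD, n = 4). Aim2 had the widest spread of group means of this list as a fold, from 7.78 ± 2.58 CPM under adhesive implants on day 3 to 3.11 ± 1.31 on day 14 (SD, n = 4), a log2 fold change of -1.23 (SE 0.57, adjusted p = 0.15 in edgeR). Without non-adhesive day 14 replicate 4 that value was -1.28, with an adjusted p of 0.0137 in edgeR, a call, and Aim2 was also called lower under adhesive implants on day 14 (-1.22, adjusted p = 0.0415). Without that library 10.5% and 8.32% of all genes tested were called in these comparisons, in that order.

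Of the receptor and signalling list, 5 of 39 genes had a symbol and none was called. Il1rap, the co-receptor that completes the IL-1 receptor, stood at 6.39 ± 1.07 and 5.42 ± 2.19 CPM on day 3 and at 4.47 ± 0.86 and 4.14 ± 1.87 CPM on day 14 (adhesive and non-adhesive, SD, n = 4). Traf6, the ubiquitin ligase downstream of MyD88, had log2 fold changes of 0.31 (SE 0.32) and 0.03 (SE 0.35) between implants on days 3 and 14. The other 3 were Tab3 and Mapk14, a TAK1-binding protein and the p38 kinase, and Irak3, a brake on the pathway. Between implants their log2 fold changes lay between -0.16 and 0.25, with Tab3 tested on day 3 only.

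The response genes that IL-1 and NF-κB can induce were lower on day 14 where they changed. Of 10 named genes out of 40 on the list, 4 were called lower and none higher under adhesive implants, and 2 were called lower under non-adhesive implants. Of all 14601 genes tested, 545 and 548 were called lower under adhesive and non-adhesive implants, and 8.12% and 9.07% in either direction. The list's median log2 fold change was -1.57 and -1.14, against -0.01 and 0.04 over all genes tested. The list was written with earlier results of these data known, so its calls and medians describe it and are no test. Ccl7, a monocyte chemokine, fell under both implants, from 173 ± 82.8 to 22.6 ± 20.1 CPM under adhesive implants (log2 fold change -2.83, SE 0.71, adjusted p = 0.019 in edgeR) and from 127 ± 101 to 14.7 ± 7.04 CPM under non-adhesive implants (-3.01, SE 0.71, adjusted p = 0.013; SD, n = 4). Cxcl1, a neutrophil chemokine, fell under adhesive implants from 8.24 ± 4.33 to 1.31 ± 0.41 CPM (log2 fold change -2.54, SE 0.70, adjusted p = 0.027 in edgeR). Selp, the endothelial adhesion molecule P-selectin, fell there from 29.5 ± 7.31 to 7.5 ± 3.89 CPM (-1.88, SE 0.56, adjusted p = 0.036 in edgeR). The other call under non-adhesive implants was Cxcl6, a neutrophil chemokine that is named outside the naming rule because it was called, at -2.54 (SE 0.83, adjusted p = 0.047 in edgeR). Under non-adhesive implants Cxcl1 and Selp had -1.18 and -0.93, and whether these differ from the adhesive values was tested by the interaction of implant and day, in which neither was called. Without non-adhesive day 14 replicate 4 the calls were 4 lower and 1 lower, beside 10.5% and 9.72% of all genes called in either direction. Il1b itself had -0.70 and 0.04 in these comparisons. The 4 muscle fibre genes had a higher mean summed level on day 14. This sum went from a mean of 9290 to 22200 CPM under adhesive and from 6680 to 14700 CPM under non-adhesive implants. By edgeR, Eno3 was called higher under both (2.63 and 2.79). Mb was called higher under adhesive implants (3.02), but not under non-adhesive implants (1.43). The rise was not shared by all 4 genes. Under adhesive and non-adhesive implants, Mybph had log2 fold changes of 0.54 and -0.87 and Fhl1 of -0.06 and -0.3, none called. The part of the rise in the sum in the levels of the response genes and the members was not tested. Between implants, none of the 10 was called on day 3, nor any of the 9 tested on day 14.

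Of the IL-10 signalling and response list, 4 of 21 genes had a symbol. Socs1, an inhibitor of JAK signalling, fell under adhesive implants from 6.08 ± 2.55 CPM on day 3 to 0.979 ± 1.02 on day 14 (SD, n = 4), a log2 fold change of -2.50 (SE 0.78, adjusted p = 0.042 in edgeR). Prdm1, the gene of the transcription factor BLIMP-1, rose under non-adhesive implants from 2.13 ± 0.649 to 4.22 ± 1.34 CPM (SD, n = 4), with a log2 fold change of 1.07 (SE 0.35, adjusted p = 0.046 in edgeR). Under the other implant Socs1 had -0.44 (SE 0.71) and Prdm1 0.20 (SE 0.35), not called. Neither gene was called in the interaction of implant and day. Socs3, the STAT3-induced inhibitor that IL-10 is known to switch on, had -1.34 (SE 0.67) and -1.33 (SE 0.67) for day 14 against day 3 under adhesive and non-adhesive implants, both with an adjusted p of 0.18 in edgeR. Dusp1, a phosphatase of p38 and JNK, had 0.34 (SE 0.39) and 1.03 (SE 0.39), with adjusted p-values of 0.58 and 0.085. Under non-adhesive implants, Prdm1 and Dusp1 thus had the sign of Il10, and Socs1 and Socs3 the opposite sign. Only Prdm1 passed the threshold there. Among the 5 named genes of 58 on the list of other interleukins and their receptors, none was called with all libraries. Il15, a cytokine also made by muscle fibres, came closest, at 9.63 ± 4.57 and 24.5 ± 9.15 CPM on days 3 and 14 under adhesive implants (SD, n = 4), with a log2 fold change of 1.42 (SE 0.47, adjusted p = 0.053 in edgeR). Leaving out non-adhesive day 14 replicate 4, Il15 (1.38, adjusted p = 0.0377) and Csf2rb, a receptor chain (-1.46, adjusted p = 0.0384), were called in that comparison by edgeR. Of all genes tested, 10.5% were called there without that library.

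**Figure D4:**
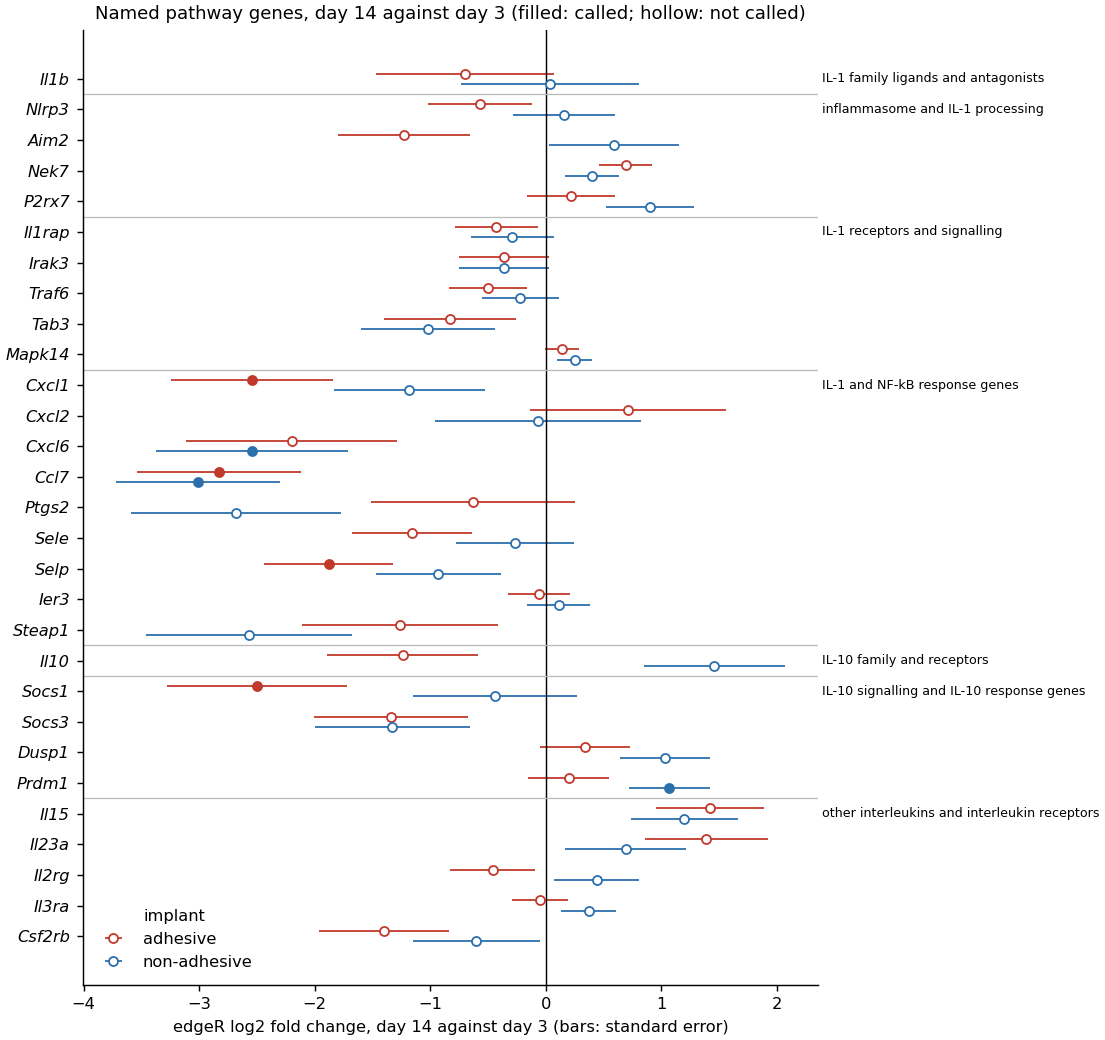
edgeR log2 fold changes (x axis) with standard errors for day 14 against day 3 under adhesive (red) and non-adhesive (blue) implants, for named genes of 7 pathway lists, 1 response gene left out; filled points are called. Ccl7 is called lower under both implants, and Il10 lies at -1.24 under adhesive and 1.46 under non-adhesive implants, both hollow.

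Markers of cells that can make these cytokines overlapped in summed level between the implants on both days. The 5 named pan-leukocyte genes summed to 251.1 to 501.8 CPM in the adhesive and 140.3 to 378.1 CPM in the non-adhesive libraries of day 3, and to 151.7 to 323.3 and 89.6 to 457.9 CPM on day 14. The 6 named monocyte and macrophage genes summed to 213.0 to 572.8 and 197.3 to 454.5 CPM on day 3 and to 220.7 to 451.5 and 106.4 to 458.9 CPM on day 14. None of the leukocyte genes, and none of the 5 macrophage genes tested, was called between implants on either day with all libraries. With non-adhesive day 14 replicate 4 left out, 1 of them, Tlr7, a receptor for single-stranded RNA, was called lower under adhesive implants on day 14 (-1.22, adjusted p = 0.0276 in edgeR). In that fit 8.32% of all genes tested were called, against 0.266% with all libraries. The 4 named T and NK cell genes summed to 9.56 to 48.8 and 2.173 to 20.0 CPM on day 3 and to 8.89 to 15.4 and 3.70 to 32.2 CPM on day 14, and none was called between implants. The 4 named B and plasma cell genes summed to 4.304 to 12.5 and 5.49 to 34.5 CPM on day 3 and to 11.9 to 24.2 and 5.97 to 51.1 CPM on day 14, again with none called between implants. Between days, Tlr7 (-2.28) and Cd244 (-2.52) were called lower and Jchain (2.37) higher under adhesive implants by edgeR. Under non-adhesive implants, Cd247 (2.63) and Jchain (3.87) were called higher and Tnfrsf13b (-1.62) lower. Of all genes tested, 8.12% and 9.07% were called under adhesive and non-adhesive implants. The T and NK cell list had 3 log2 fold changes above 0 and 1 below under either implant. The B and plasma cell list was split 2 and 2 under either implant. Of the 5 macrophage genes tested, 4 were below 0 and 1 above under adhesive implants. Of the neutrophil list only Retnlg had a symbol, and it was present in every library at 0.634 to 12.7 CPM. Kit, a receptor of mast cells and the sole named gene of their list, stood on day 14 at 3.31, 6.92, 3.75 and 3.14 CPM under adhesive and at 18.5, 19.4, 18.2 and 4.94 CPM under non-adhesive implants, with replicate 4 again low. Kit had a log2 fold change of 1.59 (SE 0.39, adjusted p = 0.015 in edgeR) for day 14 against day 3 under non-adhesive implants, a call. Between implants on day 14 it had -1.85 (SE 0.46, adjusted p = 0.12 in edgeR) with all libraries and -2.15 (adjusted p = 0.00436) without non-adhesive replicate 4. The 12 named fibroblast and matrix genes summed to 2459 to 13180 CPM under adhesive and 3224 to 21700 CPM under non-adhesive implants on day 14. Of these 12, 1 was called lower under adhesive implants on that day (Fmod), and 9 without non-adhesive replicate 4, where 8.32% of all genes tested were called. In both groups the libraries low in Il1b, adhesive replicate 1 and non-adhesive replicate 4, were the lowest in matrix genes and the highest in muscle fibre genes, at 27340 and 26820 CPM. The part of tissue makeup in the levels of the 3 members was not tested.

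How the members varied within groups was described by correlation over the 16 libraries after subtraction of the 4 group means, with no test, since all genes share the libraries and their depth. The genes most like Il1b, of 1908 named genes with a mean of at least 1 CPM, were C1qtnf1 (r = 0.944), Polq (0.936), Sec14l2 (0.920), Steap1 (0.911) and Gfpt2 (0.910), while the median over all candidates was 0.018. Without non-adhesive day 14 replicate 4 these 5 had r from 0.894 to 0.942. Nlrp3 had r = 0.906 with Il1b, Csf2rb 0.900, Sele 0.897 and Irak3 0.896. The same lists also held genes with r below 0, among them Nek7 (-0.282), Mapk14 (-0.417), Il15 (-0.518) and Il23a (-0.398). Of the 10 response genes, 8 had r above 0.5 with Il1b, as did 5 of 5 pan-leukocyte and 11 of 12 matrix genes, and 4 of 4 muscle fibre genes had r below 0. Smaller shares were above 0.5 in the macrophage (4 of 6), IL-1 receptor and signalling (2 of 5) and B and plasma cell (2 of 4) lists. The share of all candidates above 0.5 was not computed, so these counts have no background beside them. For Il10 the most alike were Adora2b (0.840), Lypd1 (0.817), Osr1 (0.817), Enoph1 (0.808) and Parp10 (0.805), which fell to 0.720 to 0.770 without that library. For Il1a they included Dgcr8 (0.840), Myo19 (0.812), Rtn4rl1 (0.796) and Glmn (0.778), from a gene with 0 to 34 reads a library. Between members, r was 0.614 for Il1b and Il10, 0.542 for Il1a and Il1b and 0.072 for Il1a and Il10.

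**Figure D5:**
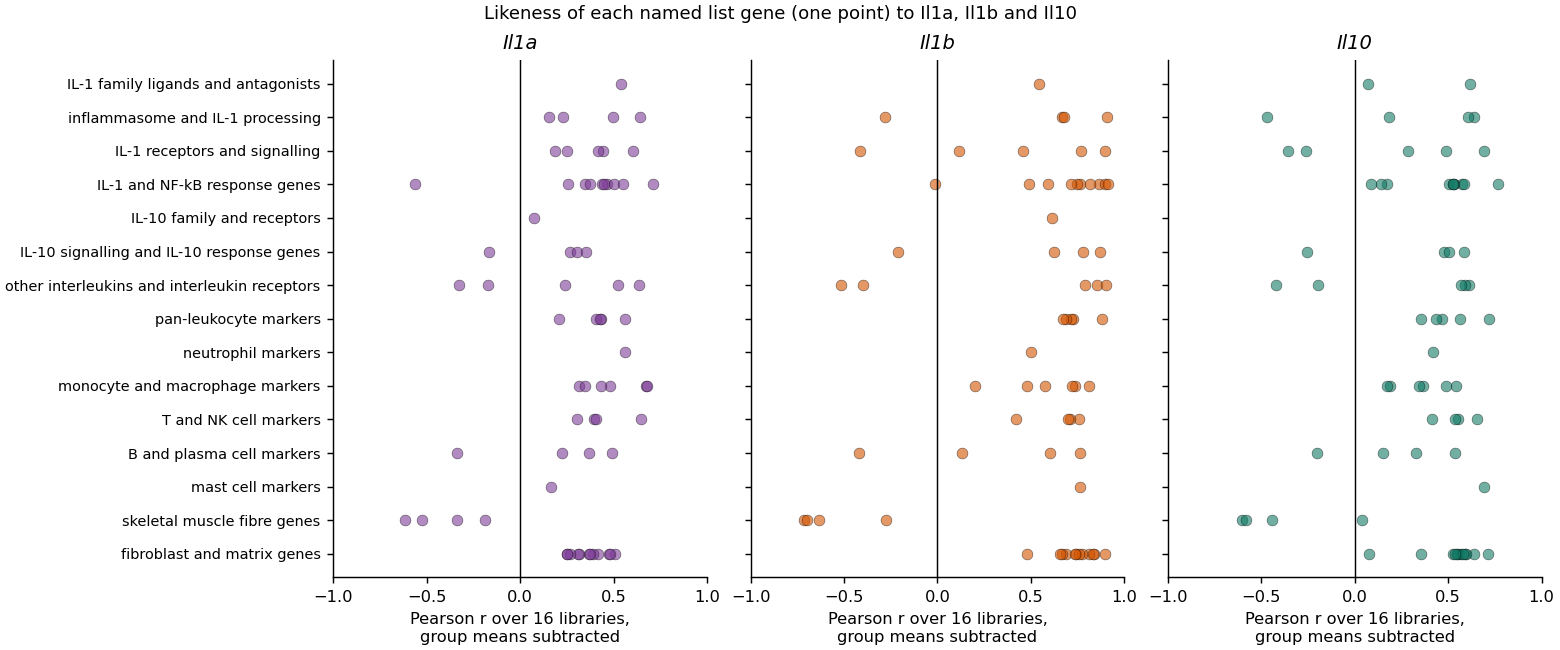
Pearson's r over 16 libraries, after subtraction of group means, of each named gene (1 point) of the 15 lists with Il1a, Il1b and Il10. The fibroblast and matrix genes lie between 0.48 and 0.90 with Il1b and between 0.25 and 0.51 with Il1a, and the 4 muscle fibre genes lie below 0 with Il1b.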

How the data were processed

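Poly(A) RNA from rat abdominal wall was sequenced in 16 libraries, 4 per implant and day. The authors demultiplexed with bcl2fastq 2.17 (submitters' processing notes), trimmed reads (Cutadapt), mapped them with STAR and assigned them to genes in featureCounts, and the deposited values are these raw counts for 32552 genes. Use of strand in counting is not given in the sources used here. After filterByExpr (minimum count 10) and TMM scaling, genes were tested in edgeR 4.0.16 (R 4.3.3) by its quasi-likelihood method with robust fitting, each day alone between implants and all 16 libraries between days. DESeq2 1.42.0, limma-voom (limma 3.58.1), other filters and scalings, the replicate number as a block and leaving out each library were alternatives. Log2 CPM used a prior count of 2. The single-gene test was also run on simulated data. Permutation tests used scipy 1.17.1 and numpy 2.4.6 and were two-sided, and figures used matplotlib 3.10.9. Poisson intervals (95%) cover counting error only.
Named genes were the 3 members, up to 4 genes per list, called ones first and then by the lowest edgeR p, and the 5 genes most correlated with each member. Members and lists were chosen with earlier results of these data known. Symbols came from the identifier and name columns of a supplementary table held in part. The methods name mRatBN7.2 and the labels GRCm38, so the build of the count coordinates was not settled. Set tests were not run. Results of 2 named genes are not reported here.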

Additional observations from a re-analysis of the deposited data

Results flagged for a closer look

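Il1b in adhesive day 14 replicate 2 stood at 20.1 CPM, while the other 3 libraries of that group held 1.39, 3.24 and 3.30 CPM. The gap to the next library in CPM, as a share of the range of the group, was 0.898, past Dixon's 95% critical value for 4 libraries. The flag holds for the CPM scale only, since the gap was not computed on log2 CPM. Of 12 groups of values tested (3 genes in 4 groups), 1 was past it, and about 1 in 20 would be by chance. The same library was the highest of its group in Il10 (1.25 CPM), Il1a (0.589 CPM) and the summed fibroblast and matrix genes (13180 CPM) and the lowest in the summed muscle fibre genes (16640 CPM). The part of these in the level of Il1b was not tested.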

How the results depend on the processing

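No member was called with all libraries under edgeR, DESeq2, limma-voom or DESeq2's size factors. Outside leaving out a library, 100 of 109 alternative member fold changes had the direction and side of the threshold reported. That count includes the call rule without a limit on the fold change, which reuses the reported value and cannot change its direction. An exact permutation test of Il1a between implants on day 14 (log2 difference 1.08) passed at its lowest possible p, 0.029, without adjustment. Il1b changed sign near 0. Between implants on day 14 its log2 fold change was -0.265 in limma-voom, -0.213 as a difference of mean log2 CPM and -0.183 with the replicate number as a block. Between days under non-adhesive implants it was -0.055 without the filter, -0.026 in a fit of the 8 libraries alone and -0.225 with the block. Il1a, in limma-voom without the filter (chosen after seeing the data, like each Il1a value without the filter), gave 0.104 between days under non-adhesive implants and -0.751 for the difference between days. A pseudocount of 1 took the log2 ratio of Il1b to Il1a between days under non-adhesive implants from -0.04 to 0.009, and the other 19 ratio alternatives and the 6 correlations under another prior count kept their direction, although the day 14 relation of Il1a and Il1b changed sign without 2 libraries. The cause was not tested.

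Leaving out 1 library, 200 of 216 values kept direction and side. Between days, these include fits without a library of the implant that is not compared, which can change little. Il10 ranged from -2.288 to -1.165 between implants on day 14 and from 0.836 to 1.807 between days under non-adhesive implants, called in both without non-adhesive day 14 replicate 4. Without the filter as well, the latter had an adjusted p of 0.0504 in edgeR. Il1b ranged from -1.229 to 0.657 and from -0.43 to 0.686 in the same comparisons. The difference between days of Il1a ranged from -0.039 to 0.542 where it passed the filter, and without the filter fell below 0 in the fits without adhesive day 14 replicate 2 (-0.046), non-adhesive day 3 replicate 1 (-0.057) and non-adhesive day 3 replicate 4 (-0.257). Replicate numbers did not pair the libraries (same-number correlations between implants from -0.418 to 0.536), and the block ended or made no call of a member (Il10 on day 14: -1.713, adjusted p = 0.178 in edgeR) but left 1 and 1 of the 4 and 2 calls of response genes between days. Depth limits Il1a most, at 0 to 34 reads a library.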
